A study of Homo sapiens with 4 samples.

Results

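The genes described here are 10 genes of the Hippo pathway output, namely the coactivators *YAP1* and *WWTR1*, the transcription factors *TEAD1* and *TEAD4*, and the target genes *CTGF*, *CYR61*, *ANKRD1*, *AMOTL2*, *AJUBA* and *LATS2*. They were taken by symbol from a table of 22578 genes, and all 10 were found and passed the filter on low counts described below. *CTGF* and *CYR61* are also called *CCN2* and *CCN1*. The cells were U87MG, a long-established line from a human glioblastoma. They were transduced with a retroviral short hairpin RNA, which targeted either firefly luciferase in the control (shControl) or *KDM2B* (shKDM2B), and each group had 2 libraries. Both groups were selected with puromycin at 1 µg/ml from day 3 and collected on day 9 after seeding. The label of each sample gives passage 8, and the treatment protocol seeds cells of passage 5. For the shKDM2B libraries, the sources used here do not state which hairpin each one carries. The study calls them biological replicates, and the sources used here do not say whether they were separate transductions, so p-values reflect the spread among these 4 libraries alone and that spread may be technical.

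The Hippo pathway is a kinase cascade that restrains growth. The kinases MST1 and MST2, with their adaptor SAV1, activate LATS1 and LATS2, which phosphorylate YAP and its paralog TAZ (the product of *WWTR1*) and so keep them in the cytoplasm or mark them for degradation. When the cascade is off, for example in spread cells on a stiff surface, YAP and TAZ enter the nucleus, bind TEAD proteins and switch on target genes. Because this control acts on YAP and TAZ proteins, mRNA levels of *YAP1* and *WWTR1* do not report their activity. KDM2B, the protein targeted by the hairpins, is a histone demethylase that binds unmethylated CpG-rich DNA. The comparison asks how the mRNA of this pathway differed after *KDM2B* was silenced.

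Depth was 30470803 to 33770421 counts per library. Of the genes in the table, 21783 whose mean count reached 10 in either group were compared with edgeR's quasi-likelihood test after TMM scaling, which sets libraries to one scale on the assumption that most genes do not change. Calls required both a fold change of 1.5 or more (0.585 on the log2 scale) and a p, adjusted by Benjamini-Hochberg over all genes tested and given below as edgeR adjusted p, no higher than 0.05. Of all genes tested, 13.3% were called higher in shKDM2B cells and 6.79% lower. The adjusted p alone was passed by 28.4% as higher and 29.5% as lower, so passing it says little on its own here. Expression is given as CPM, the counts of a gene relative to the TMM-scaled library total. *KDM2B* had 1257 and 1253 counts under shControl against 520 and 465 under shKDM2B (log2 fold change -1.60, standard error 0.06). Among marker genes of the line, *VIM* and *CD44* were abundant at means of 4460 and 1850 CPM in shControl. The summed level of the 5 glioma and mesenchymal markers was 8200 to 8290 CPM in shControl and 4590 in both shKDM2B libraries. *VIM*, *CD44* and *TNC* made up most of it and were called lower, *NES* was not called (log2 fold change -0.18), and *CHI3L1* was called higher (1.70, at 2976 and 2947 counts against 11240 and 11642). Of the other cell type markers tested, the astrocyte gene *GFAP* was called higher (0.98, from 2.45 to 4.84 CPM), as was the epithelial gene *EPCAM* (0.73, from 0.727 to 1.21 CPM), and the neuronal gene *SNAP25* was called lower (-0.81, from 32.9 to 18.8 CPM). The part of these markers in the results below was not tested. The immune marker *PTPRC* had at most 10 counts in a library. *GFAP* shares 19.9% of its exonic bases with *CCDC103* on the other strand. *CCDC103* had more counts than *GFAP*, 515 and 472 in shControl and 897 and 936 in shKDM2B.

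Of the 6 target genes, 5 were called higher in shKDM2B cells, namely *CTGF*, *CYR61*, *ANKRD1*, *AMOTL2* and *AJUBA*, and *LATS2* was not called. None of the 4 coactivator and TEAD genes was called. The count over the 10 genes was thus 5 higher and 0 lower, where 13.3% and 6.79% of all genes tested were called. The 10 genes were chosen with earlier results of these data known, so this count describes them and does not test the set. In bulk RNA, a change in the number of cells that express a gene and a change of its RNA per cell cannot be told apart. The median log2 fold change of the 10 was 0.42, against 0.01 over all genes tested. At the adjusted p alone, 7 of the 10 were higher and 1 was lower, where 28.4% and 29.5% of all genes tested were. Of those higher, *WWTR1* and *LATS2* did not pass with the tool DESeq2 in place of edgeR (DESeq2 adjusted p = 0.162 and 0.149). With all fold changes centred on 77 cytosolic ribosomal protein genes in place of TMM, the median of all genes moved from 0.01 to 0.38 and the share of calls that were higher from 66.1% to 93.6%. Under this scaling 30.0% of all genes tested were called higher and 2.05% lower. The same 5 of the 10 were called higher and the median of the 10 was 0.78. Of the markers called lower on the TMM scale, *TNC* kept its call (-1.17). *VIM* (-0.46), *CD44* (-0.38) and *SNAP25* (-0.44) were no longer called.

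**Figure D1:**
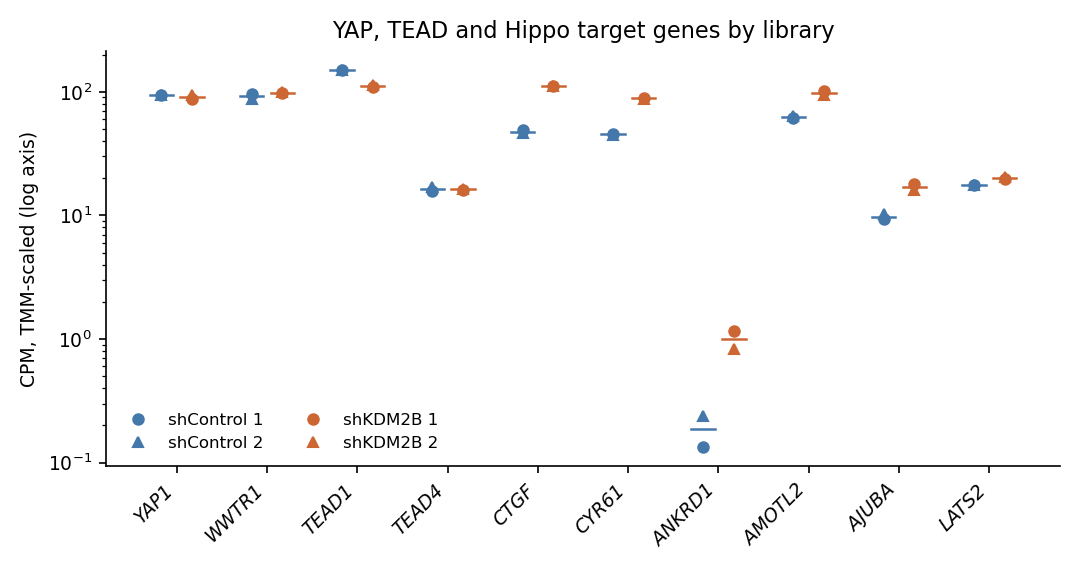
Expression of the 10 genes in each library, in TMM-scaled CPM on a log axis. Circles and triangles are libraries 1 and 2 of shControl (blue) and shKDM2B (orange), and bars are group means. *CTGF*, *CYR61*, *ANKRD1*, *AMOTL2* and *AJUBA* were higher in both shKDM2B libraries than in either shControl library. So were *WWTR1* and *LATS2*, which were not called, and *TEAD1* was lower in both. The share of all genes tested whose groups separated in this way was not computed.

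*CTGF* and *CYR61* encode secreted matricellular proteins of the CCN family and are the usual readouts of YAP and TEAD activity. *CTGF* had 1472 and 1346 counts under shControl against 3908 and 3890 under shKDM2B. On the TMM scale its level was 47.6 ± 1.96 CPM (SD, n = 2) in shControl and 111 ± 0.569 CPM (SD, n = 2) in shKDM2B. Both shKDM2B libraries were above both shControl libraries, and the gap was far larger than the spread within a group. The fold change was 2.33 (log2 fold change 1.22, standard error 0.04, edgeR adjusted p = 4.85e-20). *CTGF* (ENSG00000118523) is on chromosome 6 of GRCh37 at 132269316 to 132272512, reverse strand. Of its exonic bases, 11.9% overlap the noncoding gene *LINC01013* on the other strand, and the library kit named by the labels does not mark strand, so reads of the 2 cannot be told apart there. *LINC01013* itself was not analysed here.

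*CYR61* had 1375 and 1311 counts under shControl against 3156 and 3044 under shKDM2B. Its level was 45.4 ± 0.528 CPM (SD, n = 2) in shControl and 88.3 ± 1.52 CPM (SD, n = 2) in shKDM2B, again with no overlap between the groups. The fold change was 1.94 (log2 fold change 0.96, standard error 0.04, edgeR adjusted p = 1.07e-17). *CYR61* (ENSG00000142871) is on chromosome 1 of GRCh37 at 86046444 to 86050272, forward strand, and shares no exonic bases with another annotated gene. The pair did not rise in step. The log2 ratio of *CYR61* to *CTGF* counts within a library, which does not depend on how libraries are scaled, was -0.10 and -0.04 under shControl, and -0.31 and -0.35 under shKDM2B. The groups did not overlap in this ratio, and the difference was -0.26 (two-sided exact permutation test, p = 0.333, the smallest value that 2 libraries against 2 can give).

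*ANKRD1* encodes a nuclear ankyrin repeat protein of stretched muscle and is a direct YAP and TEAD target. It was barely detected in shControl, with 4 and 7 counts, and had 41 and 29 counts in shKDM2B. Its level was 0.133 and 0.240 CPM in shControl and 1.16 and 0.831 CPM in shKDM2B. All shKDM2B values were above all shControl values, but the counts were low and the spread wide. The log2 fold change of 2.40 was the largest of the 10 genes, with a 95% interval of 1.57 to 3.23 (edgeR adjusted p = 9.83e-06). It was 2.04 without shControl 1 and 2.87 without shControl 2, the extremes when each library was left out in turn. *ANKRD1* (ENSG00000148677) is on chromosome 10 of GRCh37 at 92671853 to 92680844, reverse strand.

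*AMOTL2* encodes an angiomotin, a junction protein that binds YAP and retains it outside the nucleus, so it is both a target and a brake of the pathway. It had 1836 and 1855 counts under shControl against 3573 and 3281 under shKDM2B. Its level was 62.4 ± 1.83 CPM (SD, n = 2) in shControl and 97.6 ± 5.06 CPM (SD, n = 2) in shKDM2B, without overlap. The fold change of 1.56 was close to the threshold of 1.5 (log2 fold change 0.64, 95% interval 0.56 to 0.73, edgeR adjusted p = 1.45e-13). With each library left out in turn it stayed at or above 0.59 and kept its call. *AMOTL2* is on chromosome 3 of GRCh37 at 134074189 to 134094321, reverse strand, and 2.9% of its exonic bases overlap the pseudogene *RPL39P5* on the same strand.

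*AJUBA* encodes a LIM-domain protein that holds LATS kinases at cell junctions under tension and thereby favors YAP activity. It had 280 and 298 counts under shControl against 641 and 554 under shKDM2B. Its level was 9.78 ± 0.646 CPM (SD, n = 2) in shControl and 18.1 and 15.9 CPM in the shKDM2B libraries. The groups did not overlap, and the fold change was 1.74 (log2 fold change 0.80, standard error 0.09, edgeR adjusted p = 5.57e-09). *AJUBA* is on chromosome 14 of GRCh37 at 23440386 to 23451760, reverse strand. A neighboring gene without a symbol (ENSG00000259132), which shares 50 exonic bases with *AJUBA* on the same strand, had more counts, 688 and 737 in shControl and 1135 and 1044 in shKDM2B.

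*LATS2* encodes one of the kinases that inactivate YAP and is itself a YAP target. It had 531 and 513 counts under shControl against 694 and 719 under shKDM2B. Its level was 17.6 ± 0.0408 CPM (SD, n = 2) in shControl and 20.1 ± 0.672 CPM (SD, n = 2) in shKDM2B. The groups did not overlap, but the log2 fold change was 0.19 (95% interval 0.05 to 0.33, edgeR adjusted p = 0.0171), well under 1.5-fold. It was 0.56 under ribosomal centring, still under the threshold. The log2 ratio of *LATS2* to its paralog *LATS1* within a library was -0.64 and -0.66 under shControl, and -0.32 and -0.19 under shKDM2B. That ratio was higher in both shKDM2B libraries by a mean of 0.39 (two-sided exact permutation test, p = 0.333, the smallest possible here). *LATS2* is on chromosome 13 of GRCh37 at 21547175 to 21635725, reverse strand.

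**Figure D2:**
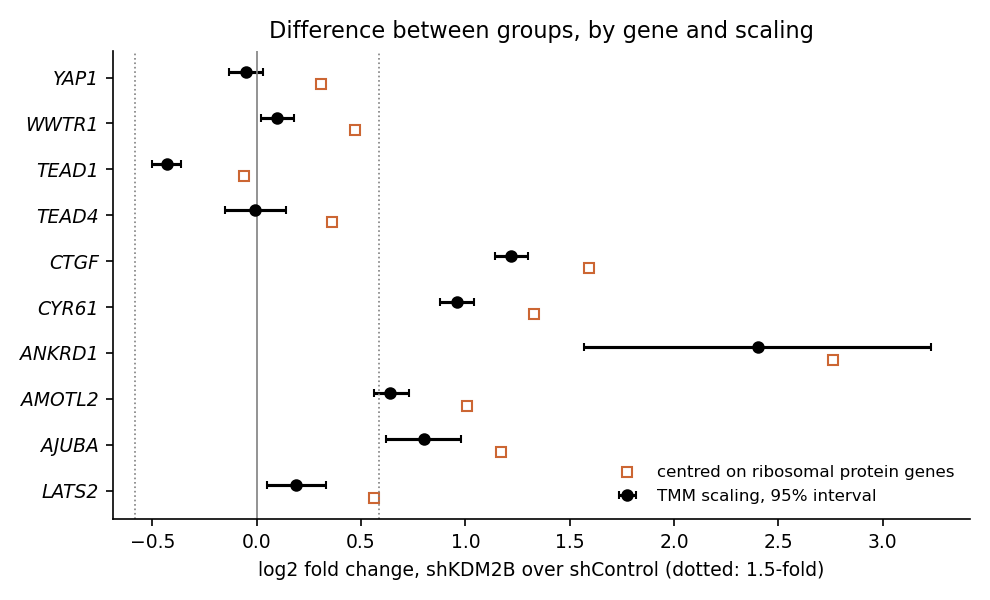
Log2 fold change of each gene, shKDM2B over shControl. Filled circles with bars are the TMM-scaled values with 95% intervals, open squares are the values centred on ribosomal protein genes, and dotted lines mark 1.5-fold. The intervals of *CTGF*, *CYR61*, *ANKRD1* and *AJUBA* lie above 1.5-fold, that of *AMOTL2* reaches from 0.56 to 0.73, and *TEAD1* is the gene whose TMM interval lies below 0.

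TEAD proteins bind the letters GGAATG. Promoters of the 10 genes were searched for them on both strands, so that a match on the opposite strand reads CATTCC. The windows came from RefSeq on GRCh38.p14 and ran from 250 bases before to 50 bases after an annotated start. Windows were found for 7 of the 10 genes, with more than 1 start for *WWTR1*, *AMOTL2* and *AJUBA*, giving 10 windows. *CYR61*, *TEAD1* and *TEAD4* were not among them. The letters occurred in 6 of the 10 windows and in 14.0% of all 35116 windows of that table. Because several of these genes are known as targets through such sites, that excess is a description of the set and not a result of the experiment. Distances are counted from the annotated start to the first base of the match on the strand of the gene.

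The upstream stretches of *CTGF* and *ANKRD1* are shown because these were the 2 genes of largest fold change and the 2 with more than 1 match. Matches are in capitals, and sequences run 5′ to 3′ on the strand of the gene. The *CTGF* stretch is chr6:131951373-131951622 and the *ANKRD1* stretch chr10:90921088-90921337, both read from the reverse strand of GRCh38.p14 and ending at the last base before the start.
CTGF: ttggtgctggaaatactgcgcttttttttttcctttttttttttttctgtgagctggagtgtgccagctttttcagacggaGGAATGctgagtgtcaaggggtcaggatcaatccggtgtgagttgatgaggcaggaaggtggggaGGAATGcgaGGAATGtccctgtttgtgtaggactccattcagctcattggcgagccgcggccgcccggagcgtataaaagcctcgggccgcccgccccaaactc
ANKRD1: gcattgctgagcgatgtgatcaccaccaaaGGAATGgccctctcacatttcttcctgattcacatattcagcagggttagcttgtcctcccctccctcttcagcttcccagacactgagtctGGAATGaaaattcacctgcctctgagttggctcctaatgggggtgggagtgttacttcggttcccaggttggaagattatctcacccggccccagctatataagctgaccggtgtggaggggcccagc

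*CTGF* held 3 matches, beginning 169, 104 and 95 bases before its start, where 0.128% of all windows held at least 3. *ANKRD1* held 2, beginning 220 and 128 bases before its start, where 1.37% of all windows held at least 2. The other windows with a match held 1 each, and 30 bases around it are shown to allow comparison of the flanks.
AMOTL2: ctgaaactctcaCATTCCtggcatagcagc
AJUBA: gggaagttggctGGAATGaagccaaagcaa
YAP1: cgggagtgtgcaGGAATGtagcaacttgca
LATS2: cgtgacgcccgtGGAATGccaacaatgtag

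The match lay 69 bases before a start of *AMOTL2*, on the opposite strand, and 59 bases before a start of *AJUBA*. It lay 162 bases before the start of *YAP1* and 9 bases after that of *LATS2*, both genes that were not called. A match in the window thus did not go with a call in every gene. On GRCh38.p14 these stretches are chr3:134374499-134374528, chr14:22976884-22976913, chr11:102110273-102110302 and chr13:21061560-21061589. The number of CpG sites, the DNA that KDM2B binds when unmethylated, varied widely between the windows. It was 40 in *YAP1*, 29 in *LATS2*, 15 in *CTGF* and 5 in *ANKRD1*, against a median of 14 over all windows. *AMOTL2* had 37 in the window with the match and 1 in the other, and *AJUBA* 3 and 27. The *WWTR1* windows, neither with a match, had 1 and 18.

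**Figure D3:**
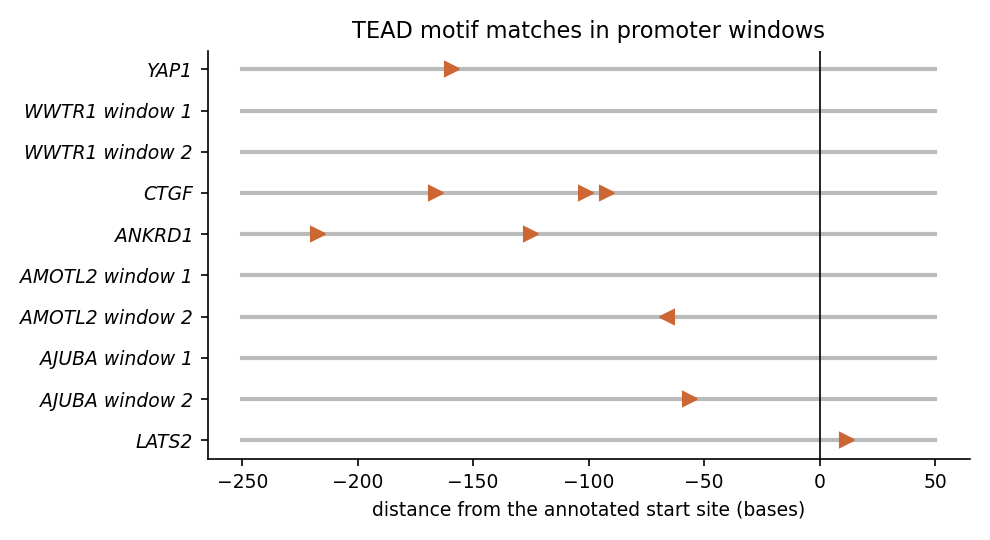
Matches to the TEAD letters in the promoter windows of 7 genes, drawn at their centre, by distance in bases from the annotated start at 0. Arrowheads pointing right are GGAATG on the strand of the gene and those pointing left on the other strand. *CTGF* holds 3 matches and *ANKRD1* 2, all before the start, and neither *WWTR1* window holds any.

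The coactivator genes differed little. *YAP1* had 2802 and 2734 counts under shControl against 3083 and 3255 under shKDM2B. Its level was 93.6 ± 0.440 CPM (SD, n = 2) in shControl and 90.3 ± 4.22 CPM (SD, n = 2) in shKDM2B, where one library was level with the lower shControl library and the other was below it. The log2 fold change was -0.05 (95% interval -0.13 to 0.03, edgeR adjusted p = 0.252), and 0.31 under ribosomal centring, so its sign depended on the scaling. *YAP1* (ENSG00000137693) is on chromosome 11 of GRCh37 at 101981178 to 102104155, forward strand. An antisense gene (ENSG00000254422) covers 10.0% of its exonic bases.

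*WWTR1* had 2862 and 2567 counts under shControl against 3434 and 3476 under shKDM2B. Its level was 91.7 ± 5.03 CPM (SD, n = 2) in shControl and 98.4 ± 1.67 CPM (SD, n = 2) in shKDM2B. The groups did not overlap, but the difference was small, with a log2 fold change of 0.10 (95% interval 0.02 to 0.18, edgeR adjusted p = 0.0277). Both mRNAs were present at similar counts. The log2 ratio of *WWTR1* to *YAP1* within a library was 0.03 and -0.09 under shControl, and 0.16 and 0.09 under shKDM2B. *WWTR1* is on chromosome 3 of GRCh37 at 149235022 to 149454501, reverse strand, and 9.1% of its exonic bases overlap *WWTR1-AS1*, which had 122 and 123 counts under shControl against 202 and 178 under shKDM2B.

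*TEAD1* was the only one of the 10 genes that passed the adjusted p in the lower direction. It had 4530 and 4344 counts under shControl against 3843 and 3968 under shKDM2B. Its level was 150 ± 1.14 CPM (SD, n = 2) in shControl and 111 ± 3.45 CPM (SD, n = 2) in shKDM2B, without overlap. The log2 fold change was -0.43 (standard error 0.03, edgeR adjusted p = 1.08e-11), under 1.5-fold and therefore not called. Under ribosomal centring it was -0.06. *TEAD1* (ENSG00000187079) is on chromosome 11 of GRCh37 at 12695968 to 12966284, forward strand.

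*TEAD4* had 471 and 491 counts under shControl against 570 and 567 under shKDM2B. On the TMM scale its level was 16.3 ± 0.837 CPM (SD, n = 2) in shControl and 16.2 ± 0.0754 CPM (SD, n = 2) in shKDM2B, and the groups overlapped. The log2 fold change was -0.01 (95% interval -0.15 to 0.14, edgeR adjusted p = 0.946), and it changed sign to 0.36 under ribosomal centring. *TEAD4* is on chromosome 12 of GRCh37 at 3068496 to 3149842, forward strand.

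Within a library, *TEAD4* gained on *TEAD1* in shKDM2B cells. The log2 ratio of *TEAD4* to *TEAD1* counts was -3.27 and -3.15 under shControl, and -2.75 and -2.81 under shKDM2B, a difference of 0.43 with no overlap (two-sided exact permutation test, p = 0.333, the smallest possible here). Per kb of exon, *TEAD1* made up 59.3% and 58.7% of the summed level of the 4 TEAD genes in shControl and 50.5% and 52.7% in shKDM2B. *TEAD4* made up 29.0% and 31.2% in shControl and 35.2% and 35.4% in shKDM2B. *TEAD1* was the most abundant TEAD mRNA in every library. *TEAD2* was scarce but higher in shKDM2B, with 17 and 17 counts under shControl against 39 and 40 under shKDM2B (log2 fold change 0.96, standard error 0.28, edgeR adjusted p = 0.00381), although DESeq2 did not call it. *TEAD3* had 236 and 196 counts under shControl against 270 and 215 under shKDM2B (log2 fold change -0.08, 95% interval -0.32 to 0.16), and its sign turned to 0.29 under ribosomal centring.

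**Figure D4:**
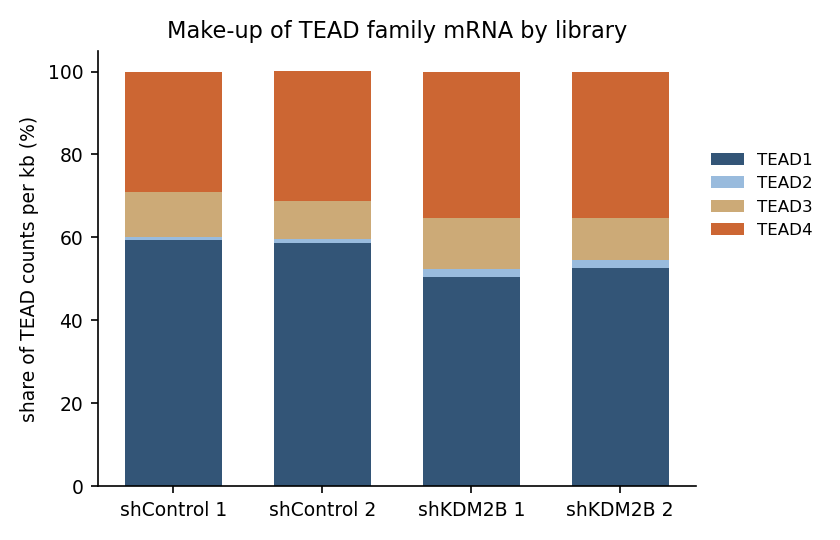
Share of each TEAD gene in the summed TEAD counts per kb of exon, in percent, by library. *TEAD1* (bottom) makes up 59.3% and 58.7% in shControl and 50.5% and 52.7% in shKDM2B, and *TEAD4* (top) gains.

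The order of the 10 genes by level, in CPM per kb of annotated exon, also differed between the groups. In shControl it ran from *CTGF* (20.4) through *YAP1* (14.8), *TEAD1* (14.0), *CYR61* (12.3), *WWTR1*, *AMOTL2* (9.63), *TEAD4* (7.15), *LATS2* (3.14) and *AJUBA* (1.66) to *ANKRD1* (0.104). No neighbors in that order overlapped between libraries. In shKDM2B, *CYR61* (23.9) and *AMOTL2* (15.1) stood above or beside *YAP1* (14.3), *WWTR1* (11.8) and *TEAD1* (10.4), while *CTGF* stayed first (47.5). Here the libraries of *AMOTL2*, at 14.5 to 15.6, overlapped those of *YAP1*, at 13.8 to 14.8, and the other neighbors did not overlap. The lengths are those of all annotated exons of a gene, not of the isoforms these cells use.

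Genes around the set were taken from lists of the pathway, which were also chosen with earlier results of these data known. Of the 6 core kinase genes, 0 were called higher and 1 lower, where 13.3% and 6.79% of all genes were called. *STK3*, which encodes MST2, had 667 and 700 counts under shControl against 491 and 473 under shKDM2B (log2 fold change -0.75, standard error 0.07, edgeR adjusted p = 3.13e-10). Under ribosomal centring it was -0.38 and no longer called. The other 5 were not called, with log2 fold changes of 0.20 for *STK4*, which encodes MST1, 0.11 for the adaptor gene *SAV1*, -0.20 for *LATS1*, and 0.41 and 0.13 for *MOB1A* and *MOB1B*, which encode LATS coactivators. *SAV1* shares 31.9% of its exonic bases with *ATL1*. Under the ribosomal scaling *MOB1A* was called higher, at 0.77, and the sign of *LATS1* turned to 0.16.

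Of 17 upstream regulators, 2 were called higher and 2 lower, with a median log2 fold change of -0.11, where 13.3% and 6.79% of all genes were called. Under ribosomal centring 6 were called higher and 2 lower, where 30.0% and 2.05% of all genes were called, and the median turned to 0.26. On the TMM scale the higher ones were *FAT4*, which encodes an atypical cadherin and rose by 1.60 on the log2 scale from 414 and 375 counts to 1414 and 1419, and *AMOT*, the angiomotin gene related to *AMOTL2*, which rose by 0.82. The lower ones were *LIMD1*, which encodes a LIM-domain protein related to AJUBA, at -1.16, and *WWC1*, which encodes the scaffold KIBRA, at -0.99. The paralogs *AJUBA* and *LIMD1* thus moved in opposite directions. *LIMD1* had 2720 and 2761 counts under shControl against 1376 and 1531 under shKDM2B, and 24.9% of its exonic bases overlap *LIMD1-AS1*, whose counts of 1182 and 1154 in shControl and 477 and 552 in shKDM2B moved with it. The uncalled genes of highest count in this list were *MAP4K4* at -0.57, *FAT1* at 0.50, which ribosomal centring called higher at 0.86, and *TAOK1* at -0.15. Without shKDM2B 2, *MAP4K4* was at -0.59, just past the threshold of 1.5-fold.

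The list of TEAD partners held *TEAD2*, *TEAD3* and vestigial-like genes, and 5 of its genes were tested. Their median log2 fold change was 0.77, which is the value of *VGLL2*, against 0.01 over all genes. Of the 5, 3 were called higher and 0 lower, where 13.3% and 6.79% of all genes were called. Besides *TEAD2*, these were *VGLL3*, at 1177 and 1154 counts under shControl against 2967 and 2723 under shKDM2B (log2 fold change 1.04, standard error 0.04, edgeR adjusted p = 1.07e-17), and *VGLL2*, at 33 and 32 counts against 65 and 67 (log2 fold change 0.77). DESeq2 did not call *VGLL2* (adjusted p = 0.0745), so that *VGLL3* was the only one of the 3 called by both tools. Vestigial-like proteins bind TEAD on the surface that YAP and TAZ use. *VGLL4*, which encodes a TEAD repressor and shares 22.2% of its exonic bases with *ATG7*, was not called at 0.37 but was called higher under ribosomal centring, at 0.74. Under ribosomal centring 4 of the 5 were called higher and 0 lower, where 30.0% and 2.05% of all genes were called. The median of the 5 was then 1.14. *VGLL1* was not analysed here.

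Further genes commonly listed as YAP and TAZ targets moved in both directions. Of 16 tested, 4 were called higher, 4 lower and 8 not at all, where 13.3% and 6.79% of all genes were called higher and lower. The median log2 fold change was -0.17, against 0.01 over all genes. *NUAK2*, which encodes a kinase of the AMPK family, rose by 1.26 on the log2 scale, *RBMS3*, an RNA-binding protein gene, by 1.19, *CRIM1* by 0.67 and *TGFB2*, a growth factor gene, by 0.59. *TGFB2* was at the threshold and was not called without shControl 2 (0.52), without shKDM2B 2 (0.58) or with median-of-ratios size factors (0.58). *NT5E*, which encodes the ectonucleotidase CD73, had 36067 and 34059 counts under shControl against 12701 and 13074 under shKDM2B (log2 fold change -1.69, standard error 0.03, edgeR adjusted p = 9.11e-27). *F3*, which encodes tissue factor, was lower at -0.98, *ASAP1* at -0.97 and *AXL*, a receptor tyrosine kinase gene, at -0.78. Under ribosomal centring, 7 of the 16 were called higher and 3 lower, where 30.0% and 2.05% of all genes were called. The median turned to 0.19, and *AXL* was no longer called at -0.41. Of those not called, *MYOF* (0.23), *IGFBP3* (-0.55) and *CCDC80* (0.46) had the highest counts. *IGFBP3* was -0.67, past the threshold of 1.5-fold, without shKDM2B 2 and -0.45 without shKDM2B 1. *FOXF2* was not analysed here.

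The other CCN genes were 1 higher and 1 lower of 3 tested, where 13.3% and 6.79% of all genes were called. *NOV*, also called *CCN3*, had 400 and 480 counts under shControl against 1560 and 1409 under shKDM2B and rose by 1.51 on the log2 scale (standard error 0.07, edgeR adjusted p = 5.16e-17). *WISP1*, or *CCN4*, was lower at -0.92 (175 and 205 counts against 115 and 124), and was not called under ribosomal centring (-0.55). *WISP3*, or *CCN6*, had a log2 fold change of 0.02 (95% interval -0.41 to 0.46).

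**Figure D5:**
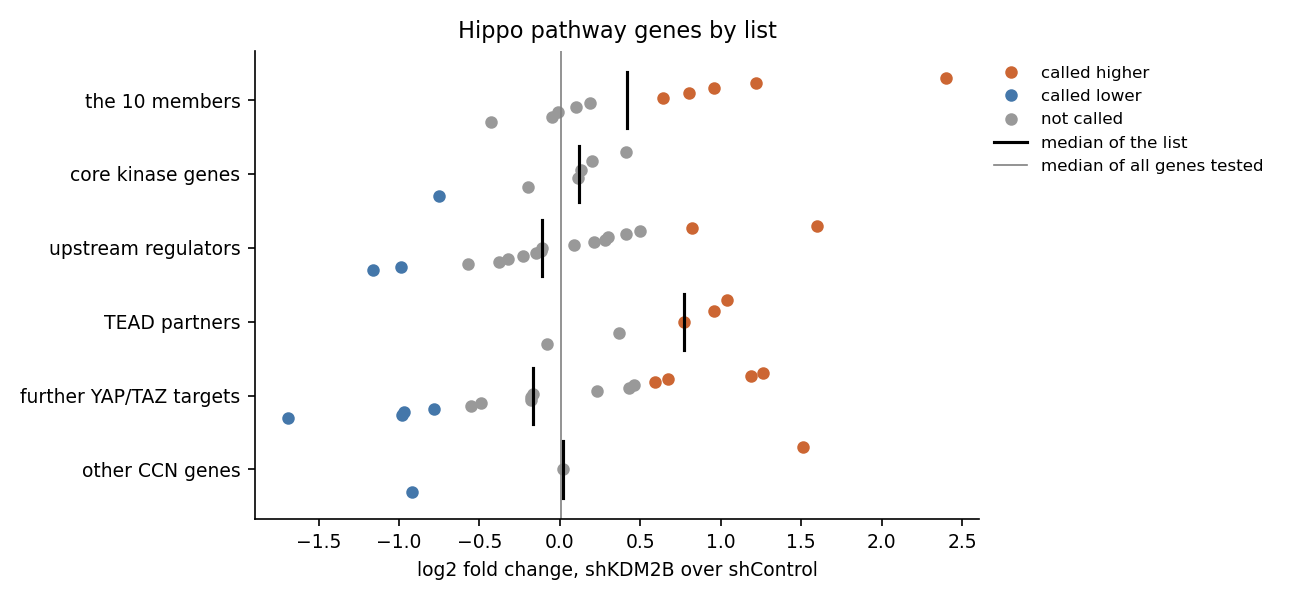
Log2 fold change, shKDM2B over shControl, of the 10 genes and of 5 lists of related genes. Each point is a gene, orange where called higher, blue where called lower and grey where not called, black bars are list medians, and the grey line is the median of all genes tested. The 10 genes have a median of 0.42, and the further YAP/TAZ targets spread from -1.69 to 1.26 with a median of -0.17.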

How the data were processed

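Polyadenylated RNA of 4 U87MG libraries, grouped by their labels, was read over 50 bases from one end, in 3 lanes each. Per the study's supplement and its processing notes at the repository, the authors used CASAVA 1.8.2 for base calls, TopHat2 2.0.11 for alignment to hg19, with SAMtools 0.1.19.0, and took reads per Ensembl gene, the sources used here stating neither their release nor the strand setting. Raw counts per gene were taken as deposited. The table's normalized values, group means, fold changes and p-values, from the authors' DESeq comparison, were not used.

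Counts of the 21783 genes with a group mean of 10 or more were tested with edgeR 4.0.16 in R 4.3.3 (glmQLFit and glmQLFTest without covariates, Benjamini-Hochberg over all of them). The common biological coefficient of variation was 2.62%, with 24.3 prior and 2 residual degrees of freedom. Standard errors and 95% intervals came from the fold change and its F statistic. Replicates differed by more than sampling noise, since the chi-square of a gene had a median of 0.656 (shControl) and 0.59 (shKDM2B), and 0.455 is the value from sampling. The test was checked on simulated counts. These were drawn from the model fitted to these data, so the check cannot show how the test does where that model is wrong. Positions and exonic lengths are from GENCODE on GRCh37, the assembly of hg19.

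The 10 genes and all lists were chosen with earlier results of these data known. Named are the 10 genes, *KDM2B*, all core kinase genes and TEAD partners, and of the other lists every called gene and up to 3 uncalled genes of largest mean count. Alternatives changed the fold threshold, filter, scaling, tool (DESeq2 1.42.0), replicate block and the library left out.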

Additional observations from a re-analysis of the deposited data

How the results depend on the processing

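Among the 10 genes the count of calls stayed at 5 without a filter on low counts, with median-of-ratios size factors, under ribosomal centring, with DESeq2 and without any 1 library. Without the fold threshold, 8 of the 10 passed, 41 genes of the pathway lists in place of 18, and 12605 of all genes in place of 4365. Ribosomal centring called 6982 of all genes and turned the sign of *YAP1* (0.31), *TEAD4* (0.36), *LATS1* (0.16), *TAOK1* (0.22) and *TEAD3* (0.29), as the median of all genes moved up. Leaving out 1 library gave 4187 to 4348 calls over all genes and 17 to 19 in the lists, and 3 log2 fold changes crossed 0, with ranges of -0.05 to 0.05 for *TEAD4*, -0.25 to 0.06 for *TEAD3* and -0.04 to 0.10 for *WISP3*. From raw counts without exon length, the change in share was -4.02 percentage points for *TEAD1*, 0.5 for *TEAD2* and 2.61 for *TEAD4*, in place of -7.43, 1.06 and 5.20, because longer genes weigh more. The libraries share only a replicate number (correlation of same-numbered deviations 0.21 over 15043 genes). A fit with the replicate number as a block called 4409 genes, 5 of the 10 and 18 in the lists. With 2 libraries a group, *ANKRD1* at 4 and 7 control counts is the least precise of the called genes.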
